A study of Mus musculus with 18 samples.

Results

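The 36 genes described here are known from macrophages and other leukocytes, and their RNA was followed in mouse ovarian follicles kept in culture with or without anti-Müllerian hormone (AMH). The members were taken by symbol from probe sets annotated to 1 gene symbol, and each gene was represented by its probe set with the highest mean log2(signal + 16) over all arrays. All 36 of the 36 were measured, among 18193 genes with such a probe set. The 22 members whose probe set lay above the 50th percentile of mean log2 signal were tested, as were 11238 genes in all. The other 14 were Ptprc, Cd48, Coro1a, Itgb2, Fcgr1, C1qa, Spi1, Adgre1, Itgam, Cx3cr1, Mrc1, Aif1, Ly86 and Cybb, and their values are given as descriptions.

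Preantral to small antral follicles came from female C57BL/6 mice (C57BL/6Ntac in the sample labels) aged 6 to 8 weeks. Follicles of 7 mice were pooled, each pool was divided over 3 dishes, and the dishes received vehicle, 50 or 200 ng/mL recombinant AMH for 12 or 24 h. All dishes, vehicle included, held medium with 80 IU/L FSH and 10 IU/L LH, so the comparisons are of AMH on top of both gonadotropins. Each of the 6 groups had 3 arrays, from 3 pools at each time. The 12 h and 24 h pools were taken as separate pools, because each pool filled 3 dishes. Isolated follicles can carry granulosa cells, the oocyte, theca cells and whatever vessel or immune cells adhere to them. The arrays measured the RNA of whole dishes, in which fewer cells of a type and less RNA per cell cannot be told apart.

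The values are MAS5 signals of Affymetrix whole-genome mouse arrays, scaled so that the 2% trimmed mean of every array is 150. A unit of signal has no fixed relation to molecules, and a level is set against that of another probe set only for the filter and to choose which probe set or list gene is given. The median signal over all probe sets ran from 18.0 to 36.5 on 17 arrays, and these arrays correlated with each other at 0.904 to 0.992. The array labelled AMH 50 ng/mL, 12 h, replicate 3 stood apart, with correlations of 0.604 to 0.624 with the others and hybridisation controls at 28532 against 1441 to 3520. It is left out of every fit and group value below, except where all 18 arrays are named, and its values are given separately. Its signals did enter the mean over all arrays used for the filter and for the choice of probe set. Of the members that define macrophages and leukocytes, some lay below the filter and some above it. Below it on the other 17 arrays, Ptprc (CD45) lay between 1.95 and 13.0, Adgre1 (F4/80) between 3.38 and 10.0, Itgam (CD11b) between 0.419 and 8.10 and Spi1 (PU.1) between 0.967 and 15.5. Above it, Csf1r lay between 45.1 and 1144, Cd68 between 68.5 and 196, Cd53 between 38.4 and 210.4 and Laptm5 between 47.5 and 329. No T cell, B cell or mast cell gene passed the filter: the 10 measured T cell genes summed to 38.9 to 80.1, the 6 B cell genes to 28.7 to 113 and the 10 mast cell and eosinophil genes to 18.3 to 47.0. The 7 NK cell genes summed to 265 to 418, and 1 of them, Prf1, passed the filter.

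Macrophages are the most abundant immune cells of the ovary and take part in follicle growth, atresia and the clearance of dying granulosa cells. They are kept alive by colony stimulating factor acting on its receptor Csf1r, and their identity depends on the transcription factor PU.1. They bind antibody-coated targets through Fc receptors, of which the activating ones signal through the adaptor Fcer1g (the Fc receptor gamma chain). Tyrobp (DAP12) is an adaptor of other myeloid receptors. Macrophages also secrete the C1q chains of complement and show peptides to T cells on MHC class II. AMH, made by granulosa cells of growing follicles, signals through its own type II receptor and SMAD proteins and restrains follicle growth and FSH responses.

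At 24 h most of the leukocyte genes were lower with AMH than with vehicle in the same pools, at both doses. The median log2 difference of the 36 members was -0.33 with 50 ng/mL and -0.46 with 200 ng/mL, against -0.01 and 0.00 for all 18193 genes. At the lower dose 32 members were lower and 4 higher, and at the higher dose 34 were lower and 2 higher. By pool the median was -0.56, -0.21 and -0.43 with 50 ng/mL and -0.72, -0.19 and -0.52 with 200 ng/mL, so the second pool showed the smallest shift at both doses. Both doses were set against the same 3 vehicle arrays, so the 2 comparisons are not independent. The members were also chosen with earlier results of these data known. The contrasts with all genes, here and below, are therefore descriptions and not tests of the list.

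No single gene passed the test at 24 h. Of 22518 probe sets tested with limma, 0 had an adjusted p under 0.05 at either dose (0% called), while 607 had an unadjusted p under 0.05 with 50 ng/mL and 374 with 200 ng/mL. Of the 22 tested members 8 and 10 had an unadjusted p under 0.05, all of them lower with AMH. The smallest adjusted p over all probe sets was 1.00 with 50 ng/mL and 0.613 with 200 ng/mL. With 50 ng/mL 18 of the 36 members were lower in every pool, where 14.3% of all genes were. At the higher dose the count was also 18, against 13.7% of all genes. The vehicle and AMH groups did not overlap for 3 members with 50 ng/mL (Tyrobp, Clec4d and Adgre1; 4.17% of all genes) and for 6 with 200 ng/mL (Tyrobp, Fcgr3, Ccl6, C1qa, Aif1 and Coro1a; 4% of all genes). In each of these the AMH group was the lower one; no member had all its AMH arrays above vehicle, where 3.31% and 3.96% of all genes did, and none was higher in every pool, where 11.3% and 13.5% did. With 1 in place of 16 added before the log, the median was -0.61 with 50 ng/mL and -0.71 with 200 ng/mL, and with 50 added it was -0.20 and -0.29.

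**Figure D1:**
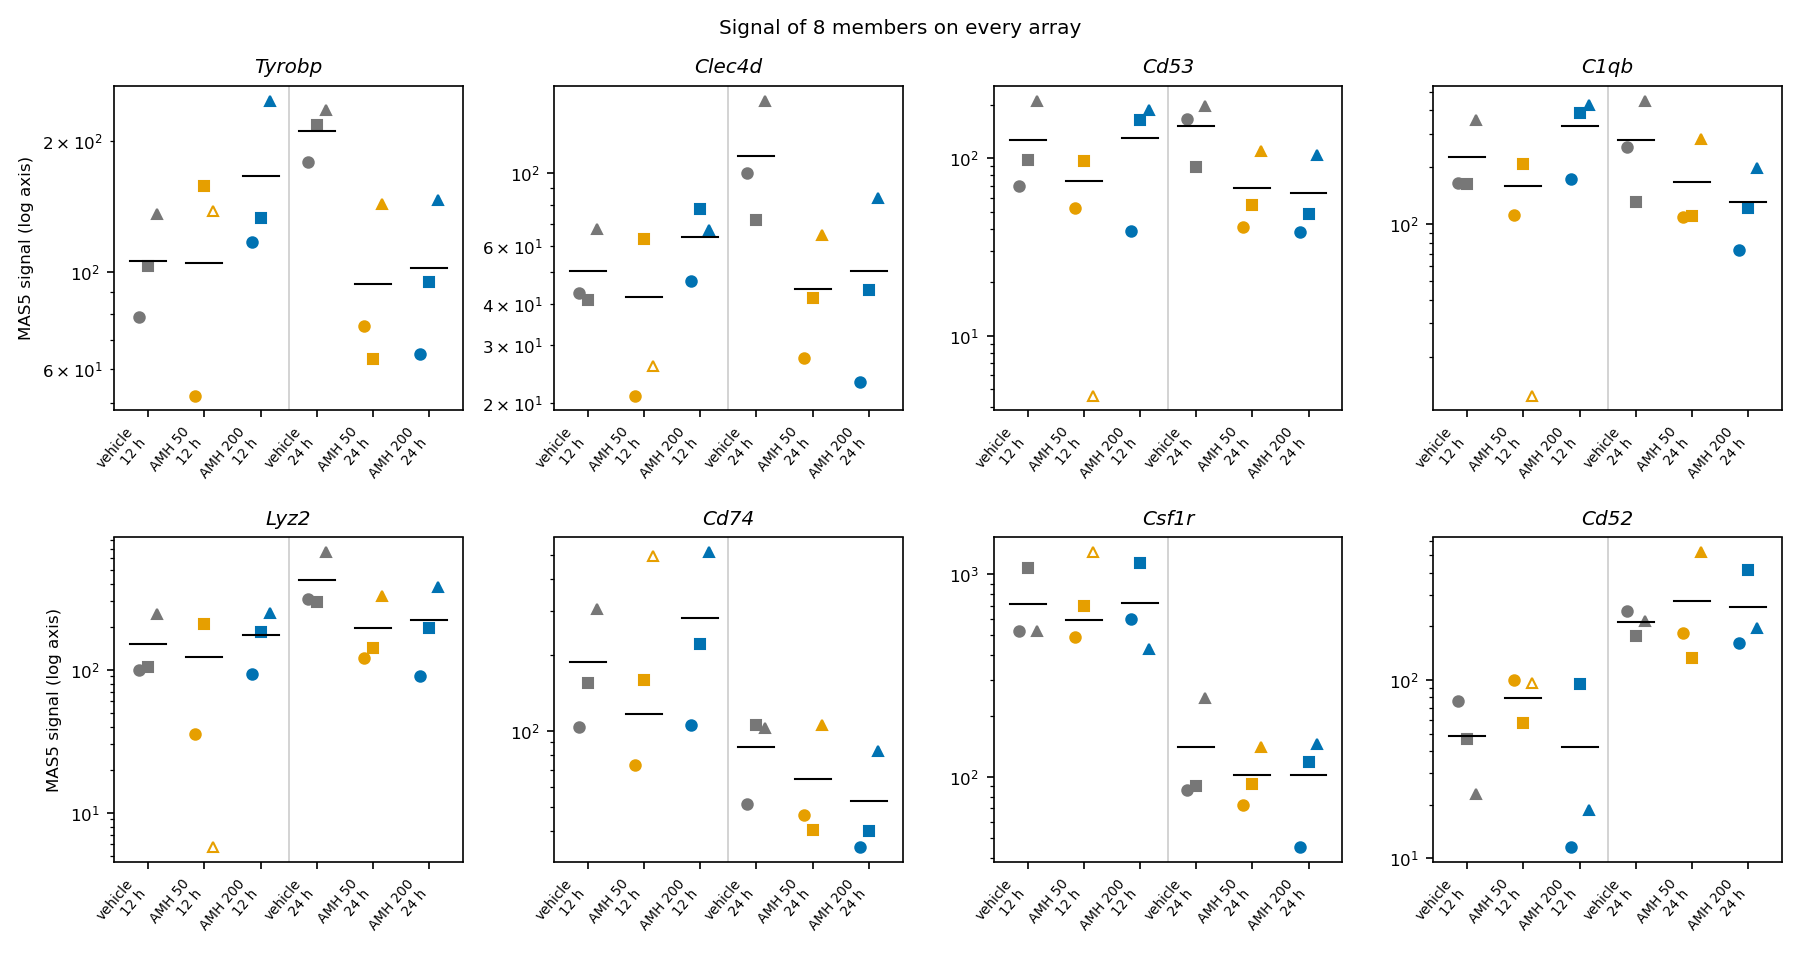
MAS5 signal (log axis) of 8 members on each of the 18 arrays, by group. Circles, squares and triangles are replicates 1, 2 and 3, the hollow triangle is the array that stood apart, and the line is the group mean without it. The 3 vehicle arrays of Tyrobp at 24 h lie above the 6 AMH arrays of that time, Csf1r is high at 12 h and low at 24 h in every dose, and Cd52 is the reverse.

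The group of Fc receptors and ITAM adaptors had a median difference of -0.72 with 50 ng/mL and -0.73 with 200 ng/mL, and all 6 were lower at both doses. Tyrobp, the adaptor that carries the ITAM signalling motif for several myeloid receptors, gave signals of 179, 218 and 236 in the 3 vehicle arrays at 24 h, 75.1, 63.2 and 143 with 50 ng/mL and 64.9, 95.2 and 147 with 200 ng/mL. Every AMH array was below every vehicle array. The log2 difference was -1.10 (SE 0.25) with 50 ng/mL and -0.99 (SE 0.25) with 200 ng/mL, with unadjusted p of 0.000744 and 0.00174 and adjusted p of 1.00 at both doses (limma). That is a 2.15-fold and a 1.99-fold lower value of signal + 16.

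Clec4d, a C-type lectin of myeloid cells that pairs with the Fc receptor gamma chain, gave 100.1, 71.7 and 165 in vehicle, 27.4, 41.6 and 64.5 with 50 ng/mL and 23.2, 44.0 and 83.7 with 200 ng/mL. The 50 ng/mL arrays all lay below the vehicle arrays, and the highest 200 ng/mL array lay above the lowest vehicle array. Its differences were -1.06 (SE 0.25) and -0.99 (SE 0.25), with unadjusted p of 0.00108 and 0.00183. For Fcer1g, the gamma chain itself, the signals were 94.96, 73.7 and 164 in vehicle, 45.6, 40.2 and 111 with 50 ng/mL and 49.2, 62.0 and 91.7 with 200 ng/mL. Here the third pool was high in all 3 dishes and the groups overlapped, but within each pool both AMH dishes were below vehicle. The differences were -0.67 (SE 0.27) and -0.57 (SE 0.27).

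Fcgr3, the low-affinity activating receptor for IgG, gave 110.4, 89.5 and 246 in vehicle, 39.5, 114 and 82.9 with 50 ng/mL and 42.7, 81.8 and 79.6 with 200 ng/mL. With 50 ng/mL the second pool went the other way, at a log2 difference of 0.30, and with 200 ng/mL all arrays lay below vehicle. The differences were -0.76 (SE 0.36) and -0.89 (SE 0.36). The inhibitory receptor Fcgr2b, at 20.2 to 58.3 in vehicle, was lower in every pool by smaller amounts, -0.30 (SE 0.24) and -0.38 (SE 0.24). The high-affinity receptor Fcgr1 was below the filter, at 9.38 to 19.0 in vehicle, with differences of -0.31 and -0.20.

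The 3 chains of C1q, which together form the recognition unit of the classical complement pathway, were lower at both doses, with medians of -0.65 and -0.94. C1qb gave 254, 130.1 and 448 in vehicle, 109.6, 110.2 and 283 with 50 ng/mL and 73.3, 122 and 197 with 200 ng/mL. It was below vehicle in every pool, but the second pool moved by -0.21 and -0.08 and the groups overlapped. The fitted differences were -0.65 (SE 0.26) and -0.94 (SE 0.26), with unadjusted p of 0.0287 and 0.0037. C1qc gave 55.5, 27.1 and 116 in vehicle, 11.9, 20.5 and 74.7 with 50 ng/mL and 11.4, 19.4 and 39.5 with 200 ng/mL, and differed by -0.71 (SE 0.45) and -0.97 (SE 0.45). In C1qc too, each AMH dish was below the vehicle dish of its pool. C1qa was below the filter, with 23.8, 13.6 and 23.2 in vehicle and 8.36 to 11.7 with 200 ng/mL.

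MHC class II genes differed in sign between each other with 50 ng/mL and were all lower with 200 ng/mL, with medians of -0.37 and -0.47. Cd74, the invariant chain that escorts class II molecules, gave 51.1, 106 and 102 in vehicle, 46.1, 40.5 and 106 with 50 ng/mL and 34.5, 40.1 and 83.3 with 200 ng/mL. The groups overlapped, and the largest difference was in the second pool, -1.11 and -1.12. Its fitted differences were -0.39 (SE 0.23) and -0.59 (SE 0.23). H2-Ab1, the beta chain of I-A, gave 148, 277 and 275 in vehicle, 137, 427 and 297 with 50 ng/mL and 64.7, 97.4 and 301 with 200 ng/mL. It was the 1 class II gene above vehicle with 50 ng/mL, at 0.20 (SE 0.51), and it was -0.76 (SE 0.51) with 200 ng/mL, where the third pool did not share the shift. H2-Aa and H2-Eb1, the alpha chain of I-A and the beta chain of I-E, lay at 6.20 to 38.5 in vehicle at 24 h, and differed by -0.46 (SE 0.37) and -0.35 (SE 0.28) with 50 ng/mL.

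Genes of phagocyte function had medians of -0.72 and -0.75, and all 6 were lower at both doses. Lyz2, the lysozyme of macrophages and neutrophils, gave 314, 295 and 662 in vehicle, 121, 141 and 326 with 50 ng/mL and 90.4, 195 and 381 with 200 ng/mL. Within each pool both AMH dishes were below vehicle, while the third pool was high throughout and made the groups overlap. The differences were -1.08 (SE 0.31) and -0.99 (SE 0.31), with unadjusted p of 0.00391 and 0.00692. Ctss, the lysosomal protease cathepsin S that trims the invariant chain, gave 395, 129 and 444 in vehicle, 101, 110.1 and 233 with 50 ng/mL and 74.9, 156 and 181 with 200 ng/mL, with differences of -0.97 (SE 0.43) and -1.05 (SE 0.43). The first pool and the third carried this difference, at -1.81 and -0.88 with 50 ng/mL, and the second pool was above vehicle with 200 ng/mL, at 0.24.

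The chemokine Ccl6 gave 132, 65.5 and 98.2 in vehicle, 10.97, 43.6 and 79.9 with 50 ng/mL and 22.3, 39.5 and 47.0 with 200 ng/mL. All 200 ng/mL arrays were below vehicle, and with 50 ng/mL the third pool overlapped. The differences were -1.05 (SE 0.35) and -1.12 (SE 0.35), and the first pool alone reached -2.46 and -1.95. Cd68, a lysosomal membrane glycoprotein used as a macrophage marker, gave 117, 91.5 and 196 in vehicle, 71.0, 86.8 and 113 with 50 ng/mL and 68.5, 93.1 and 108 with 200 ng/mL, and differed by -0.47 (SE 0.25) at 50 ng/mL and -0.47 (SE 0.25) at 200 ng/mL. The vehicle and AMH values of the second pool were nearly equal. Mpeg1, the pore-forming perforin-2, differed by -0.16 (SE 0.37) and -0.52 (SE 0.37), and Cybb, the catalytic subunit of the phagocyte NADPH oxidase, was below the filter at 3.92 to 16.8 in vehicle.

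Among the genes shared by most leukocytes, Cd53 showed the largest differences. This tetraspanin gave 166, 89.5 and 198 in vehicle, 40.7, 54.4 and 109 with 50 ng/mL and 38.4, 48.4 and 104 with 200 ng/mL. Both AMH dishes were below vehicle in every pool, and the second vehicle array overlapped the third pool's AMH arrays. The differences were -1.01 (SE 0.27) and -1.09 (SE 0.27), with unadjusted p of 0.00278 and 0.00158. The lysosomal protein Laptm5 differed by -0.87 (SE 0.48) and -0.77 (SE 0.48), and the actin-bundling protein Lcp1 by -0.38 (SE 0.39) and -0.40 (SE 0.39); in both, the second pool was above vehicle with 200 ng/mL. Cd52, a small glycoprotein anchored in the leukocyte membrane, was the exception: it gave 243, 177 and 215 in vehicle, 184, 132 and 521 with 50 ng/mL and 162, 412 and 195 with 200 ng/mL. A single array was far above the others at each dose, and the fitted differences were 0.15 (SE 0.53) and 0.16 (SE 0.53).

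The other genes of this group were below the filter. Ptprc, the tyrosine phosphatase CD45, gave 8.24, 5.36 and 13.0 in vehicle, 4.74, 4.21 and 8.62 with 50 ng/mL and 3.49, 7.06 and 5.87 with 200 ng/mL. Itgb2, the shared beta chain of leukocyte integrins, differed by -0.40 and -0.63, and the actin regulator Coro1a by -0.52 and -0.59. Cd48, a ligand of the SLAM family, differed by -0.13 and -0.21. These differences are of log2(signal + 16), a scale on which a change of a gene under 16 is compressed.

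Genes of macrophage identity and survival had the medians nearest 0 at both doses, -0.11 and -0.20. Only 2 of these 9 genes, Csf1r and Cd14, passed the filter. The others had low signals, at which the constant added before the log compresses a change. The rank of this role against roles with brighter genes therefore does not show that its genes changed least. Its tested genes alone had medians of -0.18 and -0.32, against -0.37 and -0.47 for class II, the next nearest 0. Csf1r, the receptor for colony stimulating factor 1 and interleukin 34, gave 86.4, 90.3 and 246 in vehicle, 73.1, 92.2 and 141 with 50 ng/mL and 45.1, 118 and 145 with 200 ng/mL. The groups overlapped, with differences of -0.31 (SE 0.22) and -0.37 (SE 0.22), and the second pool was above vehicle at both doses. Cd14, the lipopolysaccharide co-receptor, differed by -0.06 (SE 0.28) and -0.27 (SE 0.28). Adgre1 gave 9.32, 6.98 and 10.0 in vehicle, 3.40, 5.33 and 5.77 with 50 ng/mL and 4.17, 4.18 and 8.59 with 200 ng/mL. Its 50 ng/mL arrays lay under all vehicle arrays, at signals too low for a test. Aif1 (IBA1), Itgam, the mannose receptor Mrc1, the fractalkine receptor Cx3cr1, Spi1 and Ly86, a partner of the toll-like protein Cd180, were also below the filter, and their differences ran from -0.24 (Aif1) to 0.24 (Cx3cr1) with 50 ng/mL and from -0.56 (Aif1) to 0.12 (Ly86) with 200 ng/mL.

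**Figure D2:**
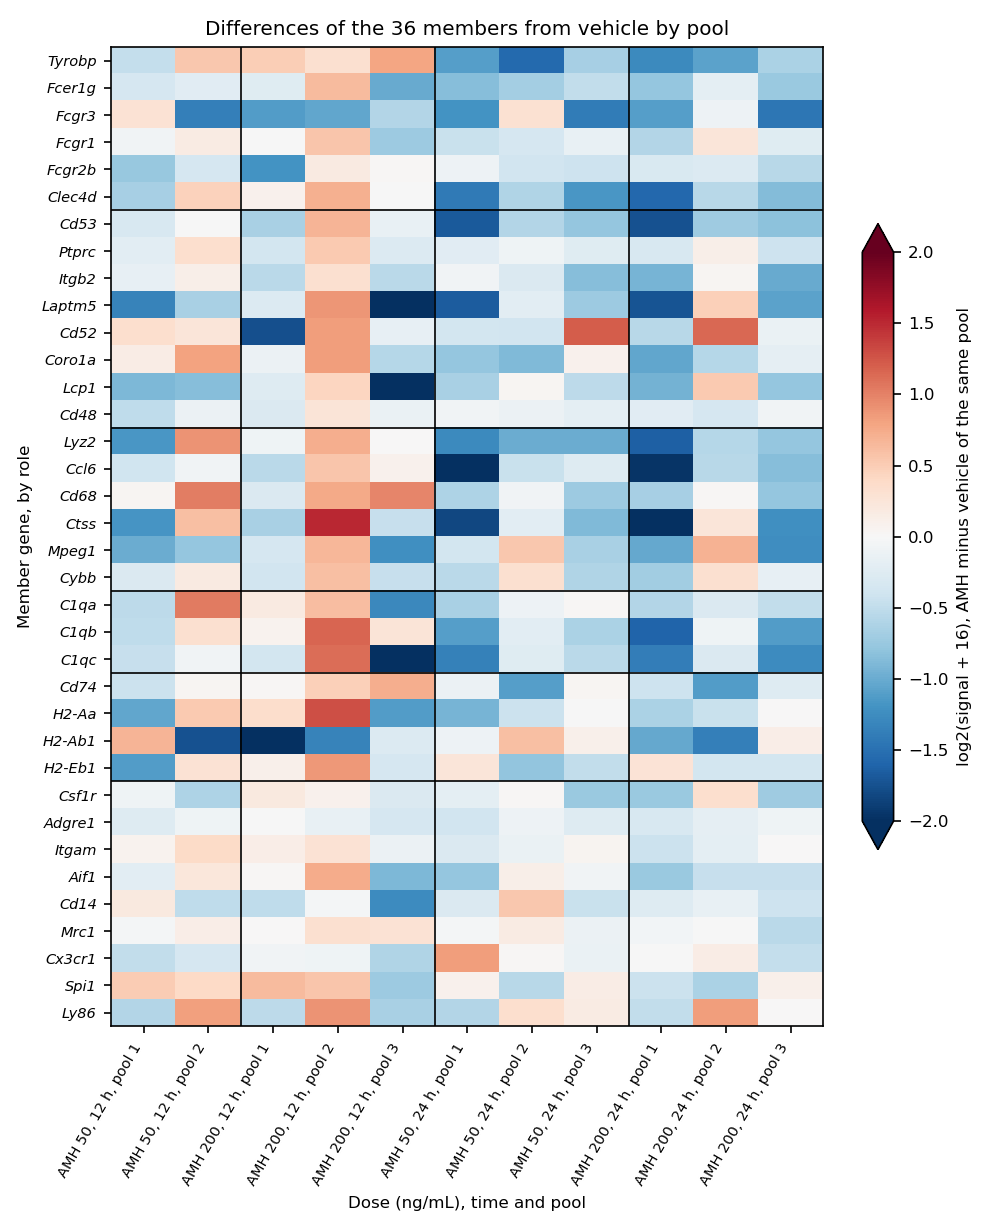
Difference in log2(signal + 16) between AMH and the vehicle dish of the same pool for the 36 members (rows, by role) in 11 pool comparisons (columns); blue is lower with AMH, red is higher, and colours end at -2 and 2. The 6 columns of 24 h are mostly blue, palest in the second pool, and the second pool of 200 ng/mL at 12 h is mostly red.

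No member differed beyond the test between the doses at 24 h. Between 200 and 50 ng/mL the median of the 36 members was -0.08, with 24 lower and 12 higher, against 0.01 for all genes. Without the first pool that median was 0.0060, without the second -0.15 and without the third -0.046. No probe set passed (0 of 22518, 0%; 938 had an unadjusted p under 0.05), and no member did at the unadjusted level. The groups overlapped for all 36 members (4.58% of all genes lay apart and lower, 4.86% apart and higher). Lower in every pool were 6 members (12.3% of all genes) and higher in every pool 1 (14.8%). The largest difference was that of H2-Ab1, -0.96 (SE 0.51), with an unadjusted p of 0.0814 and pools of -0.92, -1.97 and 0.02. For Tyrobp the difference was 0.12 (SE 0.25) and for Cd53 -0.08 (SE 0.27). The SE of the tested members ran from 0.22 (Csf1r) to 0.53 (Cd52), so a dose difference of that size was not detectable with 3 pools.

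Windows of 250 bases upstream of the RefSeq start (GRCm38.p6) were available for 26 of the 36 members. The Y box CTGATTGG, on either strand, which NF-Y binds in class II promoters, was in 2 of the 26, H2-Aa and H2-Eb1, and in 4.43% of 27025 genes. GAGGAA, the purine-rich core bound by PU.1, was found on either strand in 13 of the 26 (50.0%) and in 25.9% of all genes. Those 13 were Cd53, C1qb, C1qc, Ptprc, Fcgr3, Fcgr1, Clec4d, Cd68, Itgam, Laptm5, Aif1, Ctss and Mrc1. The longer GAGGAAGT, which contains GAGGAA, was in C1qc and in 2.79% of all genes. The pair of class II windows and 3 windows of members with a GAGGAA match are shown as examples of the class II, C1q, pan-leukocyte and Fc receptor groups described here; capitals mark the match, which is a description of letters and not evidence of binding.
H2-Aa: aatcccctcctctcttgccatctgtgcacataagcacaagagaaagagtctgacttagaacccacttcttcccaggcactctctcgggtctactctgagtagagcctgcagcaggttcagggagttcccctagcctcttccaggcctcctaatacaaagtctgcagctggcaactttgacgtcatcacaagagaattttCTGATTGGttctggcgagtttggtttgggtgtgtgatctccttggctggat
H2-Eb1: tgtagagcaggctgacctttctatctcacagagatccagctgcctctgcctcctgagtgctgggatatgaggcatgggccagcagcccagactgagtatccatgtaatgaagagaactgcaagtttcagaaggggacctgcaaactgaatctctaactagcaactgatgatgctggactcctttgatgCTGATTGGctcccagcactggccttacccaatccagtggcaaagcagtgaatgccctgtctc
C1qc: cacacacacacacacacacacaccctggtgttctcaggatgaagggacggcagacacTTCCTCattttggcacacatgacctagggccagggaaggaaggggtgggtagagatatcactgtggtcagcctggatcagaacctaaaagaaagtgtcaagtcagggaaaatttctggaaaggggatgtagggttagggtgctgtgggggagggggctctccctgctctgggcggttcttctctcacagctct
Cd53: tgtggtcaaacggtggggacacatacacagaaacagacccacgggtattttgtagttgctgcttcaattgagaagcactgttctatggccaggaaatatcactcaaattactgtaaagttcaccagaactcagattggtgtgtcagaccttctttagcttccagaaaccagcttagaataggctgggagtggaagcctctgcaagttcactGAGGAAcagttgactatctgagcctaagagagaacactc
Clec4d: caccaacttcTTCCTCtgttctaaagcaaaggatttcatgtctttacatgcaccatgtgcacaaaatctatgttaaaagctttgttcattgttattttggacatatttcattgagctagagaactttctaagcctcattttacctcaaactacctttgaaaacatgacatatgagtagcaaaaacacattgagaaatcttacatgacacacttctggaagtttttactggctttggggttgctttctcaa
The windows are chr17:34287824-34288073 (minus strand) for H2-Aa, chr17:34305617-34305866 (plus) for H2-Eb1, chr4:136892915-136893164 (minus) for C1qc, chr3:106790150-106790399 (minus) for Cd53 and chr6:123261857-123262106 (plus) for Clec4d. The first base of the match lies 51 bases before the start in H2-Aa and 62 in H2-Eb1, 193 in C1qc, 39 in Cd53 and 240 in Clec4d, read as TTCCTC in C1qc and Clec4d.

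Other genes of the same cells and pathways were taken from separate lists. Of 28 measured further macrophage genes 22 were lower with 50 ng/mL and 20 with 200 ng/mL, with medians of -0.21 and -0.26 and 0 called at either dose. Pf4, a platelet and macrophage chemokine, differed by -1.01 and -1.10 (SE 0.41), while Cyba, a subunit of the NADPH oxidase, differed by 0.03 and -0.22 (SE 0.24), the lipoprotein Apoe by -0.19 and -0.25 (SE 0.36) and the toll-like receptor Tlr4 by -0.07 and -0.20 (SE 0.33). A list of other signalling genes around ITAM adaptors and Csf1r also holds receptors and transcription factors. Of its 18 measured genes 12 were lower at each dose, with medians of -0.09 and -0.14. Only 6 of the 18 passed the filter. Of these 2 were lower and 4 higher at each dose, with medians of 0.14 and 0.095. The brightest of these were Irf5 (0.11 and 0.08), Cebpa (-0.16 and -0.28), Csf2ra (0.25 and 0.19) and Csf2rb (0.41 and 0.80), none of which passed. Trem2 stands in both lists.

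Among 13 growth factors and chemokines that act on macrophages, 7 and 9 were lower, with medians of -0.02 and -0.07. These medians include genes below the filter. Of the 7 tested genes 4 and 6 were lower, with medians of -0.47 and -0.49. Ccl2, which draws monocytes, gave means of 496 ± 218 (SD, n = 3) in vehicle, 319 with 50 ng/mL and 237 with 200 ng/mL, with differences of -0.58 and -1.09 (SE 0.30). Cxcl1, a neutrophil chemokine, was at 474 ± 60.4 (SD, n = 3) in vehicle, 163 with 50 ng/mL and 341 with 200 ng/mL, with differences of -1.46 and -0.49 (SE 0.34). Csf1, the ligand of Csf1r, differed by 0.16 and -0.20 (SE 0.24) and Cxcl12 by 0.33 and 0.05 (SE 0.48). The adjusted p of these 4 genes did not pass at either dose.

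Of further class II genes, 0 of the 5 measured passed the filter: these were H2-DMa, H2-Oa, H2-Ob, Cd83 and Ciita, and Ciita, the class II transactivator, had group means of 2.38 to 9.76. The brightest monocyte gene, Plac8, differed by 0.21 and -0.46 (SE 0.28), and the second, Fn1, which stromal cells also make, by 0.25 and -0.08 (SE 0.39). Of neutrophil genes the 1 tested, Camp, differed by 0.11 at both doses (SE 0.61), and S100a8, S100a9 and Ltf had group means of 3.56 to 9.95 at 24 h. Of dendritic cell genes Zbtb46 differed by -0.47 and -0.17 (SE 0.31) and Itgax by 0.30 and -0.09 (SE 0.28). The brightest NK list gene, Prf1, differed by -0.07 and 0.04 (SE 0.17).

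Markers of other tissue components differed in the same dishes. All 13 ovarian surface epithelium genes were lower at both doses, with medians of -0.74 and -0.60 and pool medians of -0.23, -1.39 and -0.49 with 50 ng/mL and -0.53, -1.05 and -0.22 with 200 ng/mL. Their summed signal was 5064 to 9015 in vehicle, 3891 to 4688 with 50 ng/mL and 3628 to 4613 with 200 ng/mL. The second pool had the largest shift of these genes and the smallest of the leukocyte genes. At 50 ng/mL 18 of 19 oocyte genes were also lower, with a median of -0.76, and 10 of 12 theca and interstitial genes higher, with a median of 0.28; with 200 ng/mL those medians were -0.01 and -0.03. Their part in the differences of the leukocyte genes was not tested.

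**Figure D3:**
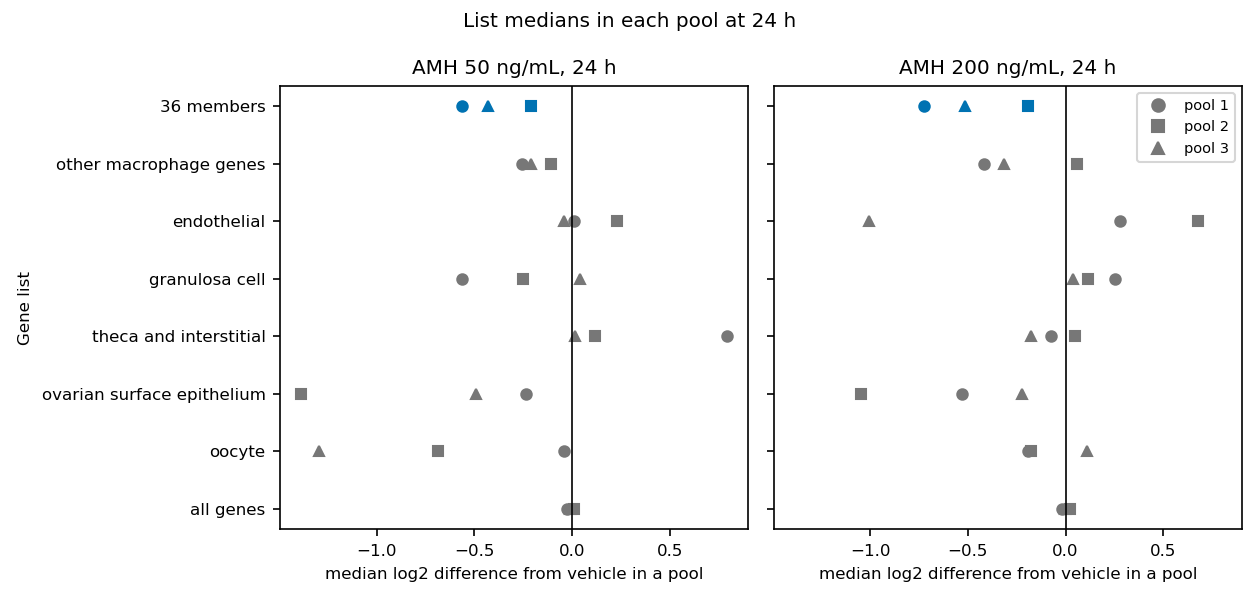
Median log2 difference from vehicle in each of the 3 pools at 24 h, for the 36 members (blue) and 7 other lists (grey), with 50 ng/mL (left) and 200 ng/mL (right); circles, squares and triangles are pools 1, 2 and 3. The members' medians are below 0 in all pools at both doses, as are those of the ovarian surface epithelium genes, while all genes stay near 0.

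The summed signal of the 36 members shows the same dishes without a log. It was 3146, 2371 and 4895 in the vehicle arrays at 24 h, 1469, 1915 and 3400 with 50 ng/mL and 1136, 2127 and 2750 with 200 ng/mL. Each AMH dish was below the vehicle dish of its pool, and the groups overlapped because the third pool was high in every dish.

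After 12 h the members lay on both sides of vehicle. With 200 ng/mL 22 were lower and 14 higher, with a median of -0.05 against -0.02 for all genes, and the pool medians were -0.24, 0.58 and -0.40. Of 22518 probe sets 0 were called (0%; 2565 at an unadjusted p under 0.05), 2 tested members among the latter. Lower in every pool were 5 members (12.6% of all genes) and higher in every pool 4 (10.5%). Leaving out the second pool gave 226 called probe sets, none of them a tested member, and a member median of -0.37. Without the first pool the median was 0.074 and without the third 0.19. Of the 22 tested members 12 were lower with all pools, and 9, 17 and 5 without the first, the second and the third pool.

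Within that mixed picture, Tyrobp was 1 of the 4 members higher in each pool, a count near the share of all genes (10.5%). Its signals were 78.9, 103 and 136 in vehicle and 118, 133 and 248 with 200 ng/mL, overlapping between pools, with a difference of 0.54 (SE 0.25), an unadjusted p of 0.0514 and an adjusted p of 0.438. C1qb, with 164, 163 and 353 in vehicle and 172, 387 and 426 with 200 ng/mL, differed by 0.50 (SE 0.26), and Cd74, with 104, 154 and 304 in vehicle and 106, 221 and 513 with 200 ng/mL, by 0.41 (SE 0.23). These genes were higher in every pool as well, with overlapping groups. Cd68 gave 132, 82.6 and 92.0 in vehicle and 105, 151 and 196 with 200 ng/mL, a difference of 0.48 (SE 0.25), with the first pool lower and the others higher.

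Other members were lower with 200 ng/mL at 12 h. H2-Ab1 gave 288, 428 and 94.9 in vehicle and 57.4, 160.4 and 76.0 with 200 ng/mL, a difference of -1.22 (SE 0.51) with an unadjusted p of 0.032. Fcgr3 gave 112, 239.5 and 46.1 in vehicle and 42.9, 108 and 25.4 with 200 ng/mL, a difference of -0.91 (SE 0.36) with an unadjusted p of 0.0253. Both were below vehicle in every pool, with overlapping groups. Cd14 gave 90.9, 83.2 and 145 in vehicle and 59.5, 81.0 and 50.9 with 200 ng/mL and was the 1 member whose 200 ng/mL arrays all lay below vehicle (2.59% of all genes), with a difference of -0.60 (SE 0.28). Mrc1 was the 1 member with all its arrays above vehicle (2.17% of all genes), at 13.9, 14.0 and 8.73 against 14.1, 21.6 and 14.1, below the filter. Lcp1 gave 77.9, 109.8 and 161 in vehicle and 62.9, 153 and 24.6 with 200 ng/mL, and its difference of -0.65 (SE 0.39) came from the third pool, at -2.12.

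Other members were close to vehicle or split by pool. Lyz2 gave 99.4, 105 and 246 in vehicle and 92.7, 183 and 248 with 200 ng/mL, a difference of 0.21 (SE 0.31). Cd53 gave 69.9, 97.1 and 210.4 in vehicle and 38.7, 165 and 188 with 200 ng/mL, a difference of -0.04 (SE 0.27). In both genes the first pool was below vehicle and the second above it. Csf1r gave 526, 1077 and 528 in vehicle and 605, 1144 and 428 with 200 ng/mL, a difference of -0.0044 (SE 0.22). For Fcer1g the values were 67.4, 62.6 and 110.4 in vehicle and 54.8, 105 and 46.6 with 200 ng/mL, for Ccl6 29.3, 31.0 and 53.1 in vehicle and 15.1, 52.8 and 57.7 with 200 ng/mL, and for C1qc 31.0, 17.9 and 64.9 in vehicle and 20.5, 57.5 and 1.30 with 200 ng/mL. Each of these 3 had pools on both sides of vehicle.

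The third 200 ng/mL array at 12 h had hybridisation controls of 3520, the highest of the 17, and a median correlation of 0.920, the lowest. Its median signal was 18.0, the lowest of the 17. In its pool the 13 endothelial genes had a median difference of -1.82 and the 13 ovarian surface epithelium genes one of 1.74. Their part in the members' values of that pool was not tested.

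With 50 ng/mL at 12 h 2 pools were left. The fit also holds the vehicle and 200 ng/mL arrays of the third pool, so a fitted difference can lie outside the values of both pools, as it does for 10 of the 36 members. By the fit 28 members were lower and 8 higher, with a median of -0.20 against -0.04 for all genes and pool medians of -0.36 and 0.15. The fitted median was -0.095 without the first pool and -0.37 without the second. No probe set passed (0 of 22518, 0%; 1285 at an unadjusted p under 0.05, 4 of them members). Lower in both pools were 12 members (30.8% of all genes) and higher in both 5 (23.6%). The groups did not overlap for 7 members lower than vehicle (7.49% of all genes) and for 1 higher, Cd68 (6.66%). All 19 measured oocyte genes had a fitted difference below 0, with a median of -0.80, and their part was not tested.

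Lcp1 gave 77.9, 109.8 and 161 in the 3 vehicle arrays and 34.3 and 53.9 in the 2 arrays with 50 ng/mL, a fitted difference of -1.24 (SE 0.46) against -0.90 and -0.85 in the pools themselves. Mpeg1 gave 114, 51.9 and 239.6 in vehicle and 49.4 and 23.7 with 50 ng/mL, a fitted difference of -1.12 (SE 0.43) against -0.99 and -0.78. Laptm5 gave 209, 127 and 296 in vehicle and 73.4 and 74.9 with 50 ng/mL, a fitted difference of -1.42 (SE 0.56) against -1.33 and -0.65. Without the third pool the differences were -0.87 (Lcp1), -0.88 (Mpeg1) and -0.99 (Laptm5). In these 3 genes both AMH arrays lay below all vehicle arrays. Cd68, at 137 and 184 against 132, 82.6 and 92.0, lay above them, with a fitted difference of 0.66 (SE 0.29) against 0.043 and 1.02 in the pools. The unadjusted p of the 4 genes ran from 0.0184 to 0.0443, and the adjusted p was 0.862 for each (limma). Tyrobp was at 52.0 and 158, Lyz2 at 35.7 and 210.2, Cd53 at 52.7 and 96.9 and Csf1r at 493 and 699 in the 2 arrays.

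On the array that stood apart 16 of the 36 members had a signal above all other 17 arrays, 6 a signal below them and 14 one within their range. The whole array deviates, and the share of all genes outside their range was not determined. These counts are therefore no result about the members. Fcer1g was at 540.4 there against 40.2 to 164 elsewhere, H2-Eb1 at 551 against 4.86 to 91.7, Aif1 at 216 against 0.426 to 16.0 and Spi1 at 187 against 0.967 to 15.5. Cd53 was at 4.60, Lyz2 at 5.75 and C1qb at 12.5, each below its range on the other arrays.

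The AMH differences at 24 h were compared with those at 12 h by an interaction term. With 200 ng/mL the difference at 24 h was the lower one in 29 of 36 members, with a median of -0.36 against 0.02 for all genes. Tyrobp differed between the times by -1.53 (SE 0.35), C1qb by -1.43 (SE 0.37) and Clec4d by -1.26 (SE 0.36), with unadjusted p of 0.000885, 0.00213 and 0.00395. Lyz2 (-1.20 (SE 0.44)), Ccl6 (-1.16 (SE 0.50)), Cd53 (-1.05 (SE 0.39)), Cd74 (-1.0003 (SE 0.33)) and Cd68 (-0.95 (SE 0.35)) were further members with an unadjusted p under 0.05. The adjusted p of all 8 was 0.628, and 0 of 22518 probe sets passed (0%; 1618 at an unadjusted p under 0.05). Without the second 12 h pool the member median was -0.030, without the third -0.66 and without the first 24 h pool -0.23.

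For 50 ng/mL the same term had a median of -0.18 over the members, with 25 lower and 11 higher, against 0.03 for all genes. It was -0.042 without the second 12 h pool, -0.068 without the first 24 h pool and -0.11 without the third. Tyrobp differed by -1.20 (SE 0.39), Cd68 by -1.12 (SE 0.39) and Clec4d by -0.89 (SE 0.39), and none passed after adjustment (0 of 22518, 0%; 733 at an unadjusted p under 0.05). Mpeg1, at 0.96 (SE 0.57), and Lcp1, at 0.87 (SE 0.60), had differences of the other sign, also without a call. For no member did the AMH difference from vehicle thus change between 12 h and 24 h beyond the test at either dose.

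Between the vehicle dishes of 12 h and 24 h single members passed the test. Csf1r fell and Cd52 rose, and the roles went apart: class II genes had a median of -0.91 at 24 h against 12 h, while Fc receptor and adaptor genes (0.38), C1q genes (0.31) and phagocyte effectors (0.61) had medians above 0. Over the 36 members 12 were lower and 24 higher, with a median of 0.17 against 0.00 for all genes. That median was 0.037 without the second 12 h array, 0.28 without the third, 0.31 without the second 24 h array and 0.036 without the third. Of 22518 probe sets 292 were called (1.3%), 94 lower (0.417%) and 198 higher (0.879%), and of the 22 tested members 1 was called lower and 1 higher. The times were taken to come from separate pools, so time in culture and the set of pools cannot be told apart.

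Csf1r gave 526, 1077 and 528 at 12 h and 86.4, 90.3 and 246 at 24 h. Every 24 h array was below every 12 h array, and the AMH arrays showed the same gap, with 428 to 1144 at 12 h and 45.1 to 145 at 24 h. It fell by 2.27 on the log2 scale (SE 0.41; limma, adjusted p = 0.046), a 4.83-fold change of signal + 16. Its second probe set differed by -1.68 (SE 0.25, adjusted p = 0.0319) and the third by -0.80 (SE 0.20, adjusted p = 0.0958). The call of Csf1r was lost without the filter (adjusted p = 0.0827), with 1 added before the log (0.0555) and without any 1 of 5 of the 6 arrays; it held without the third 12 h array (0.0284).

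Cd52 went the opposite way, from 76.7, 46.4 and 22.9 at 12 h to 243, 177 and 215 at 24 h. Again the groups did not overlap. It rose by 1.89 (SE 0.32) on the log2 scale (limma, adjusted p = 0.0401). This call was lost with all 17 arrays in 1 fit (adjusted p = 0.0677), without the filter (0.0773), with 1 added before the log (0.0555) and without any 1 of 4 of the 6 arrays; it held without the first 12 h array (0.0254) or the third (0.0226).

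Further members had no overlap between the times and did not pass. The counts of such members, given below, are near the shares of all genes and are no result about the members. Tyrobp had signals of 78.9, 103 and 136 at 12 h and 179, 218 and 236 at 24 h, with a difference of 0.91 (SE 0.23) and an adjusted p of 0.0927. Lyz2 differed by 1.42 (SE 0.39), Ccl6 by 1.08 (SE 0.28) and Clec4d by 0.91 (SE 0.30), with adjusted p of 0.113, 0.101 and 0.166. In these 4 genes every 24 h array was above every 12 h array, as in Cd52 (5 members; 11.5% of all genes). Cd14 gave 90.9, 83.2 and 145 at 12 h and 35.3, 23.0 and 55.6 at 24 h, a difference of -1.19 (SE 0.29) with an adjusted p of 0.0881. H2-Aa gave 47.4, 41.1 and 121 at 12 h and 25.1, 20.9 and 25.7 at 24 h, a difference of -0.99 (SE 0.33), and H2-Eb1 44.3, 43.2 and 65.1 at 12 h and 6.20, 20.2 and 38.5 at 24 h, a difference of -0.91 (SE 0.33). With Csf1r these are the 4 members with all 24 h arrays below the 12 h ones (9.65% of all genes).

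With the replicate number as a block in the vehicle fit, 642 probe sets were called in place of 292, and 4 members: Csf1r (adjusted p = 0.0399) and Cd14 (0.0349) lower, Cd52 (0.0243) and Lyz2 (0.0206) higher. With all 17 arrays in 1 fit Csf1r (0.0132) and Cd14 (0.0371) were called, and without the third 12 h array Lyz2 (0.0298) and Tyrobp (0.0452) passed beside Csf1r and Cd52. Cd74, at -0.92 (SE 0.39), followed the other class II genes without a call, and H2-Ab1 differed by -0.03 (SE 0.48). Beside these, 12 of 13 granulosa cell genes were higher at 24 h, with a median of 1.05, and 12 of 13 endothelial genes lower, with a median of -0.66. The neutrophil gene Camp was at 62.0 ± 50.9 (SD, n = 3) at 12 h and 237 ± 94.2 (SD, n = 3) at 24 h, a difference of 1.83 (SE 0.45, adjusted p = 0.087). The part of other cells in the members' values was not tested.

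**Figure D4:**
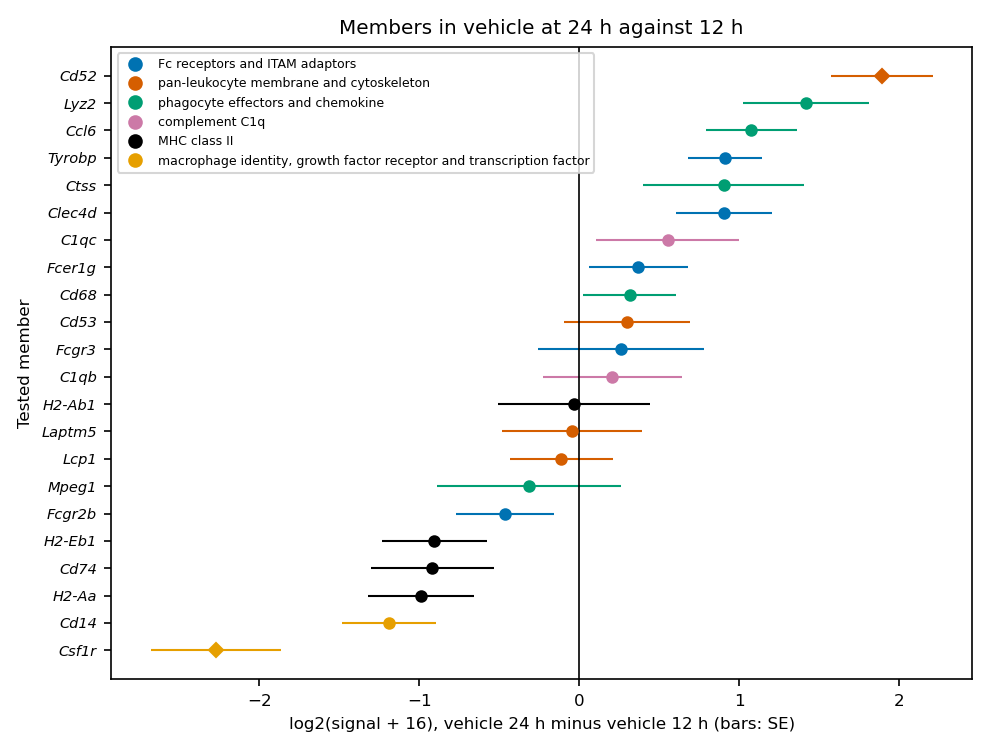
Fitted difference in log2(signal + 16) between vehicle at 24 h and at 12 h for the 22 tested members, ordered by size and coloured by role, with bars of 1 SE; diamonds mark an adjusted p under 0.05. Cd52 at 1.89 and Csf1r at -2.27 are at the ends, and 3 of the 4 class II genes lie at -0.91 or below.

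Once the pool means were removed, tested members varied together over the 17 arrays to different degrees. The correlation of each member with the mean of the other tested members was 0.92 for Ctss, 0.91 for Cd53 and 0.90 for Fcer1g, 0.45 for Tyrobp, 0.16 for Cd52 and 0.02 for H2-Ab1. These values are over arrays that share pools, doses and labelling, and they describe how the probe sets went up and down together. Among 11216 other tested genes the ones most like the members' mean were Dcbld1 and Ms4a6d (0.90 each), Slc11a1 (0.85), Nr3c1 and C5ar1 (0.83 each), Ptprv, Sh3gl3, Kcnd1, Gpnmb, Ccdc39, Gm5817, Prss12, Mmp12, Btbd3 and Dram1 (0.76 for the last), where the 95th percentile of all was 0.47. The lists of other macrophage genes held 3 of these 15, namely Ms4a6d, Slc11a1 and Gpnmb. Gpnmb, a lysosomal glycoprotein, differed from vehicle at 24 h by -1.25 and -0.75 (SE 0.38). The 15 genes were picked by likeness over the same arrays, so their AMH differences are not independent of those of the members.

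For 14 members the array holds several probe sets, 41 in all. All probe sets of a gene had the same sign of difference for 10 of the 14 genes at each dose at 24 h, for 5 with 200 ng/mL at 12 h and for 11 in the vehicle comparison. The brightest probe sets of C1qb, H2-Aa and Laptm5 are of the type that can cross-hybridise with other transcripts, and those of H2-Ab1, Fcgr2b, Clec4d and Aif1 of the type shared by several transcripts, so their values are the less certain ones.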

How the data were processed

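Total RNA of 18 follicle cultures was amplified from 5 ng and hybridised to 1 array each. The deposited table holds MAS5 signal intensity on a linear scale, per the submitters' processing notes (version not given in the sources used here), and the authors' scaling was kept. The 45101 probe sets include 64 controls, which were dropped; 34945 of the rest carry 1 gene symbol in the platform annotation, 932 carry several and 9160 carry none. For AMH at 12 h, titles and sources say 12 h but descriptions say 24 h; the former were followed.

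Values of log2(signal + 16) on 17 arrays, excluding the deviating one, were fitted with limma 3.58.1 under R 4.3.3 (moderated tests with a trend on mean level), with the 6 pools as a block. Vehicle at 24 h was compared with 12 h from the 6 vehicle arrays without a block. Tests were two-sided, with Benjamini-Hochberg adjustment over 22518 probe sets (those in the upper part of mean log2 signal, past its 50th percentile) and a threshold of 0.05. The pool as a pair comes from the labels; arrays of 1 pool correlated in their deviations at 0.067 to 0.50. Vehicle arrays of the same replicate number correlated across times at 0.32, 0.26 and 0.21, against at most -0.094, -0.083 and -0.028 for other numbers. What arrays of 1 replicate number share between the times was not tested. Members, role groups and lists were chosen with earlier results of these data known. All 36 members are named, with values on every array for 1 or more genes of each role and up to 4 further members of smallest unadjusted p in a comparison; of other lists the brightest genes are given. Genes with no probe set of their own symbol were not used. Promoter windows are RefSeq's. The fit was tested on simulated data. Alternatives changed the block, pseudocount (1 or 50), normalization, filter, arrays in the fit and probe sets per gene, or left out a pool or array.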

Additional observations from a re-analysis of the deposited data

Results flagged for a closer look

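Some members had an AMH difference of opposite sign in every pool of 12 h and of 24 h. They were picked by this pattern, and the share of all genes that show it was not determined. With 200 ng/mL Tyrobp was higher in all 3 pools at 12 h and lower in all 3 at 24 h, and the difference between the times was -1.53 (SE 0.35; limma, unadjusted p = 0.000885, adjusted p = 0.628). C1qb showed the same signs, with a difference between the times of -1.43 (SE 0.37) and an adjusted p of 0.628. So did Cd74, at -1.0003 (SE 0.33) with an adjusted p of 0.628. Mrc1 was also higher in every pool at 12 h and lower in every pool at 24 h, by -0.41 between the times; it was below the filter and this difference was not tested. With 50 ng/mL Cd68 was higher in both pools at 12 h, by 0.043 and 1.02, and lower in all 3 at 24 h. The difference between the times was -1.12 (SE 0.39; limma, unadjusted p = 0.0125, adjusted p = 0.999).

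On the array labelled AMH 50 ng/mL, 12 h, replicate 3, 16 of the 36 members were above their range on the other 17 arrays. The main fits leave this array out, but it entered the mean signal used for the filter and the choice of probe set. The share of all genes above their range on this deviating array was not determined.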

How the results depend on the processing

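Over the alternatives, the member medians at 24 h kept their sign: without 1 pool they ran from -0.44 to -0.30 with 50 ng/mL and from -0.57 to -0.37 with 200 ng/mL, and 1 added before the log gave -0.61 and -0.71. The members' medians of 200 against 50 ng/mL (-0.15 to 0.0060) and of 200 ng/mL at 12 h (-0.37 to 0.19) changed sign without 1 pool; that of 50 ng/mL at 12 h was 0.0046 with all 18 arrays. The pool block changed no call of an AMH comparison: with and without the replicate block 0 probe sets were called. With the 24 h arrays alone 1 probe set was called with 50 ng/mL, not a member. Without 1 pool the count was 0 to 226 with 200 ng/mL at 12 h, 0 to 4 with 50 ng/mL at 12 h and 0 to 3 for the time difference of 50 ng/mL. The 292 calls between the vehicle times became 680 with 17 arrays, 60 without a filter, 151 with 1 added before the log and 642 with the replicate block, and 0 to 555 without 1 array. Leaving out 24 h replicate 1, 2 or 3 gave 1, 0 and 0 calls, and 12 h replicate 1, 2 or 3 gave 343, 35 and 555. The 226, 4 and 3 calls came without the second 12 h pool.

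Some members changed sign. Cd14 with 50 ng/mL at 24 h was 0.021 after quantile normalization. Without 1 pool, the ranges at 24 h were -0.37 to 0.13 (Cd14, 0.050 without the first pool), -0.51 to 0.081 (Mpeg1) and -0.38 to 0.42 (Cd52) with 50 ng/mL and -0.34 to 0.51 (Cd52) with 200 ng/mL. With 200 ng/mL at 12 h they were -1.295 to 0.38 (C1qc), -1.19 to 0.088 (Lcp1), -1.28 to 0.30 (Laptm5) and -0.96 to 0.34 (Cd52). Between the vehicle times they were -0.20 to 0.63 (C1qb), -0.61 to 0.39 (H2-Ab1), -0.25 to 0.77 (Fcgr3), -0.41 to 0.43 (Laptm5), -0.80 to 0.20 (Mpeg1) and -0.40 to 0.12 (Lcp1). The cause of these changes was not tested beyond the fewer arrays or probe sets in each fit. The number of arrays limits the precision. Members below the filter lie in the lower part of mean log2 signal, and their distance from background was not measured.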
